A study of Mus musculus with 35 samples.

Results

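Aminoacyl-tRNA synthetases are the enzymes that load each transfer RNA (tRNA) with its amino acid, the step that supplies every ribosome. Of 36 listed genes, 20 encode cytosolic enzymes and 16, whose names end in 2, encode enzymes that work inside mitochondria. The split goes by name: Gars and Kars, with no listed partner ending in 2, were counted as cytosolic only, whatever their use in mitochondria. The 36 genes were chosen by the enzyme each encodes, with no threshold on a measured value, but with earlier results of these data known. The arrays measured 33 of them, 17 cytosolic and 16 mitochondrial, among 19938 genes. Aars was covered only by a cluster of probes shared with Exosc6, and Dars and Mars were not analysed here. Of the 33, 32 were read by 1 cluster and Iars by 2.

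The cells were type 1 conventional dendritic cells (cDC1) sorted from mouse spleen, the dendritic cells that present antigen of dying cells to CD8 T cells. RNA was measured on 35 Affymetrix arrays as log2 values. Set 1 held 5 arrays of resting MyclGFP/+ cells (heterozygous, HET) and 4 of resting MyclGFP/GFP cells (Mycl KO), so its controls also carried 1 GFP allele. Set 2 held 5 arrays of resting Mycl+/+ cells (wild type, WT) and 5 of Mycl KO cells. Set 3 held 5 Mycl+/+ and 5 MyclGFP/GFP arrays from mice injected with poly IC, a mimic of viral double-stranded RNA (100 µg into the peritoneum), 5 h before the spleen was taken. The Mxd1 set held 3 Mxd1+/+ arrays and 3 labelled Mxd1-/-, all taken 18 h after poly IC. Age, sex and strain are not given in the labels, which number the arrays as biological replicates without saying whether each is another mouse. The p-values therefore measure the spread between arrays. The 4 sets were normalized apart, so levels of different sets are only set side by side. A lower value in such sorted bulk samples can mean fewer cells of a kind or less RNA per cell, which cannot be told apart.

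MYC family proteins, MYCL among them, pair with MAX and bind the E-box CACGTG, and MXD1 pairs with MAX as a repressor of the same sites. Many cytosolic synthetase genes are also targets of ATF4, the transcription factor that is made when amino acids run short, and 8 cytosolic synthetases sit together in a multi-enzyme complex. Wars, the tryptophan enzyme, differs from the others in being a known interferon-induced gene. Dendritic cells switch from MYC to MYCL as they mature, and the comparisons ask what loss of Mycl or Mxd1 changes in resting and in stimulated cDC1.

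The stretches below are shown because 3 cytosolic members, Tars, Iars and Yars, were the members that fell in set 3 once its arrays that stand apart were left out, and because the letters searched were found in them. Each runs 5′ to 3′ on the gene's strand from 90 bases before to 30 bases after the annotated start of transcription, and is taken from RefSeq (GRCm38.p6). Capitals mark the E-box CACGTG and the ATF4 core TGATGCA, read as TGCATCA from the other strand. The Tars stretch lies at chr15:11399629-11399748 on the minus strand, Iars at chr13:49682040-49682159 on the plus strand, Yars at chr4:129189813-129189932 on the plus strand and Farsb at chr1:78488868-78488987 on the minus strand. The mitochondrial partners lie at chr3:95754948-95755067 (Tars2, minus), chr1:185329372-185329491 (Iars2, minus) and chr16:16302875-16302994 (Yars2, plus), and hold none of these letters.
Tars: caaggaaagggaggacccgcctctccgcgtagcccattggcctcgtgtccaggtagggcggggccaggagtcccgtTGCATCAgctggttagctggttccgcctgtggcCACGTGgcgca
Iars: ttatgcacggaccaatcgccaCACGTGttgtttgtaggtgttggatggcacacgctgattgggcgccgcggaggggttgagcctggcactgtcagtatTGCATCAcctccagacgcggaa
Yars: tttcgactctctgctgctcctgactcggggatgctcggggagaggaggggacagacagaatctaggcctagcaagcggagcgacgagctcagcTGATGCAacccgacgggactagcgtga
Farsb: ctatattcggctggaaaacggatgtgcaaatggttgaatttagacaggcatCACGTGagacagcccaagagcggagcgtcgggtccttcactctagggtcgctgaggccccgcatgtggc
Tars2: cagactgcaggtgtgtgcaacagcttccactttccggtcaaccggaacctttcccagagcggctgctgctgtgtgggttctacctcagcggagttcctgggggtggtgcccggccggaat
Iars2: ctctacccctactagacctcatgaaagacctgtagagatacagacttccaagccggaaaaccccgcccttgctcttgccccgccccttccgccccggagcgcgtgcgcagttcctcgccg
Yars2: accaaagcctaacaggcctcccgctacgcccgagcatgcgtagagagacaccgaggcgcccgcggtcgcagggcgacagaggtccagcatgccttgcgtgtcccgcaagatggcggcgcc

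RefSeq windows from 250 bases before to 50 after the start were matched for 10 cytosolic genes (10 windows) and 14 mitochondrial genes (15 windows). Of the measured members, Cars, Hars, Lars, Nars, Rars, Vars, Wars, Hars2 and Pars2 had no window and were not searched. Both strands were read, and the 2 motifs do not overlap each other. The E-box was found in 3 of 10 cytosolic windows: at position -39 from the start in Farsb, -69 in Iars and 20 in Tars. It was found in 1 of 15 mitochondrial windows, at position 22 in Ears2, and in 7.15% of all 32851 windows. The ATF4 core was found in Tars, Iars and Yars, at positions -14, 9 and 4 from the start, in 0 of 15 mitochondrial windows and in 3.15% of all windows. Tars and Iars held both motifs, against 0.204% of all windows. Of the members that fell in set 2 (below), Lars, Rars and Nars were not searched, and Farsa held neither motif. A match is a description of the letters, not of binding, and no test was made of it.

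**Figure D1:**
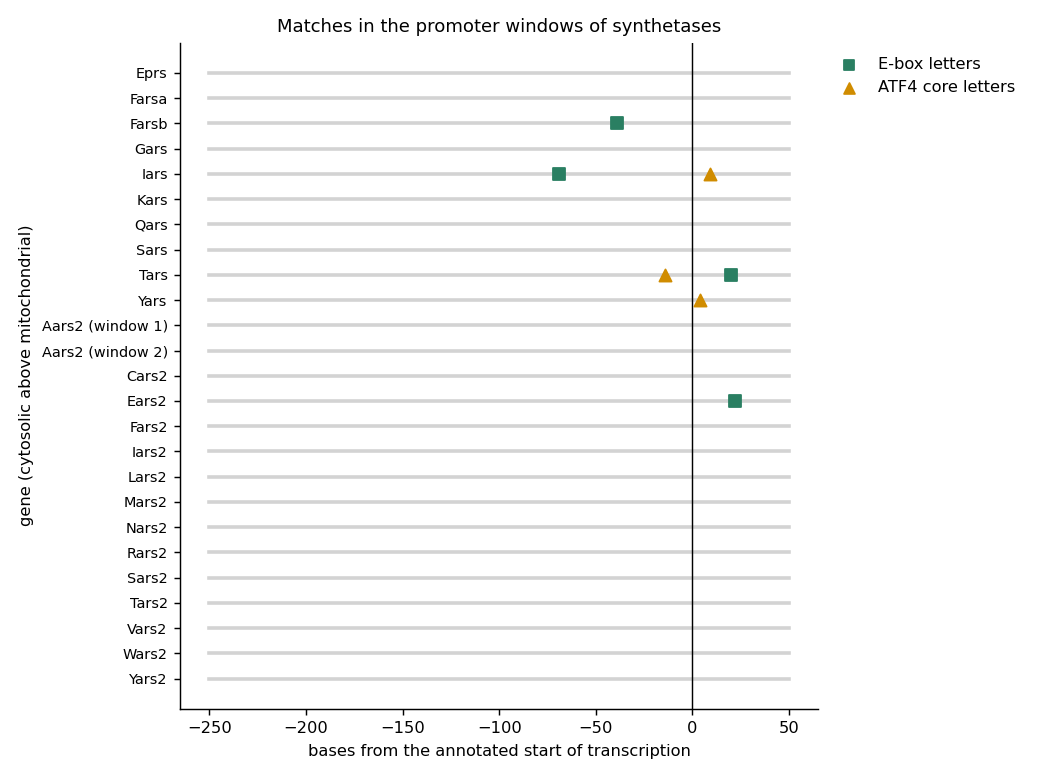
Positions of the E-box letters (squares) and ATF4 core letters (triangles) in the promoter windows of the matched synthetase genes, in bases from the annotated start of transcription (0); each grey line is 1 window. Tars and Iars hold both motifs, Yars the ATF4 core only, and Farsb and Ears2 the E-box only.

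The targeted genes and the sort were checked first. Mycl lay between 6.78 and 7.11 in the KO arrays of set 1 against 9.65 to 9.93 in HET, and between 5.51 and 5.80 in the KO arrays of set 2 against 9.55 to 9.79 in WT. In set 3 the library labelled KO 3 had Mycl at 8.87, against its label, while the other 4 KO arrays lay between 5.52 and 6.14 and the WT arrays between 9.03 and 9.81. In the Mxd1 set, Mxd1 was 10.51 ± 0.115 (SD, n = 3) in the libraries labelled KO and 10.82 ± 0.20 in WT (log2 difference -0.31, limma, adjusted p = 0.260). The transcript level therefore did not bear out these labels. It cannot refute them either, because the allele and the positions of the probes are not known. All 12 measured cDC1 markers were above the filter level on every array of every group, as were all 5 measured plasmacytoid dendritic cell markers, 6 of 8 B cell markers, 7 to 9 of 11 monocyte and macrophage markers and 4 to 6 of 8 cDC2 markers. The interferon-stimulated genes (22 measured) split the set 3 WT arrays: their mean log2 level was 7.47 in WT 1 and 8.68 in WT 4 and 10.42 to 10.68 in the other WT arrays, against 10.49 to 10.86 in KO. The synthetase results of set 3 are therefore given with and without WT 1, WT 4 and KO 3; these alternatives were chosen after seeing the data, from the interferon-stimulated genes and Mycl and not from the synthetases.

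In resting cells without Mycl in set 2, Tars, Lars, Rars, Nars and Farsa fell, 5 of 17 cytosolic synthetases. Of all 14012 genes tested, 2.36% fell. Of the mitochondrial members 0 of 16 passed limma's test in either direction, against 6.14% of all genes. Below 0 were 12 of 17 cytosolic and 8 of 16 mitochondrial members, against 47.1% of genes. The median log2 difference (KO minus WT) was -0.14 over the cytosolic members, -0.01 over the mitochondrial members and 0.01 over all genes. Mitochondrial members lay nearer the filter level (4.77 to 4.84 in WT): their mean log2 level was 6.53 to 6.62 on WT arrays, against 8.47 to 8.50 for cytosolic members. On the WT arrays of set 3 these means were 6.06 to 6.67 and 8.31 to 8.87. The part of this level in the contrast between cytosolic and mitochondrial members was not tested. Before adjustment, 10 cytosolic members had p under 0.05, all lower, and 2 mitochondrial members did, against 21.2% of all genes. In the same set 6 of 12 cDC1 markers rose and 1 fell, 4 of 20 tested interferon-stimulated genes rose, and 3 of 16 immediate early genes rose and 1 fell, where 3.78% of all genes rose. Markers of other cells changed both ways: of 6 tested for cDC2, 2 rose and 1 fell, of 5 for plasmacytoid dendritic cells 2 rose and 1 fell, of 9 for monocytes and macrophages 1 rose and 2 fell, and of 6 for B cells 1 rose and 2 fell. None of the tested neutrophil (4), T and NK (6) or erythroid (3) markers was called. The part of these lists in the synthetase results was not tested.

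Tars, the threonine enzyme, gave the largest difference. Its log2 values were 7.11, 7.04, 7.0, 7.06 and 7.04 in WT and 6.52, 6.64, 6.67, 6.58 and 6.63 in KO. All 5 KO arrays were below all 5 WT arrays, and Tars fell by 0.44 ± 0.05 (SE) on the log2 scale (limma, adjusted p = 0.000323).

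Rars, Nars and Farsa, which encode the arginine and asparagine enzymes and the catalytic subunit of the phenylalanine enzyme, also fell with no overlap between groups. Rars was at 8.63, 8.64, 8.72, 8.74 and 8.61 in WT and at 8.25, 8.38, 8.45, 8.44 and 8.56 in KO, a difference of -0.25 ± 0.06 (limma, adjusted p = 0.0277). Nars was at 10.93, 10.91, 10.97, 10.85 and 10.80 in WT and at 10.73, 10.79, 10.54, 10.59 and 10.58 in KO, a difference of -0.24 ± 0.06 (adjusted p = 0.0313). In each the lowest WT array stood close above the highest KO array. Farsa was at 8.21, 8.11, 8.17, 8.09 and 8.25 in WT and at 7.90, 7.87, 7.82, 8.07 and 8.0 in KO, a difference of -0.23 ± 0.06 (limma, adjusted p = 0.0348). Lars, the leucine enzyme, was at 7.33, 7.32, 7.28, 7.13 and 7.36 in WT and at 7.06, 7.06, 6.91, 6.99 and 7.14 in KO, so that WT 4 overlapped KO 5, and it fell by 0.25 ± 0.06 (limma, adjusted p = 0.0257). With Tars, Rars, Nars and Farsa the groups did not overlap in 4 of 17 cytosolic members, against 3% of all genes lower in KO.

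The other 12 cytosolic members did not pass the test. Eprs, which loads both glutamate and proline, stood nearest to it at -0.24 ± 0.07 (limma, adjusted p = 0.0617), followed by Qars at -0.14 (adjusted p = 0.186), Farsb, the other phenylalanine subunit, at -0.15 (0.213), Vars at -0.115 (0.222) and Yars at -0.17 (0.231). Wars (0.10), Kars (0.06), Iars (0.04), Hars (0.04) and Gars (0.02) had differences above 0. Wars was at 8.43, 8.49, 8.54, 8.24 and 8.41 in WT and 8.59, 8.61, 8.31, 8.54 and 8.55 in KO, with KO 3 apart from the other KO arrays.

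Among mitochondrial members of set 2, Mars2 and Ears2, the methionine and glutamate enzymes, had the largest differences. Mars2 was at 7.10, 6.88, 7.02, 6.78 and 7.05 in WT and at 6.74, 6.56, 6.69, 6.90 and 6.87 in KO, with overlap (-0.21 ± 0.08, limma, adjusted p = 0.119). Ears2 was at 6.44, 6.19, 6.69, 6.29 and 6.43 in WT and at 6.21, 6.28, 6.11, 6.29 and 6.28 in KO, also with overlap (-0.17 ± 0.08, adjusted p = 0.238).

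The count of cytosolic calls in set 2 rests on small margins. Leaving out 1 array left 1 call without WT 1 or WT 2, 2 calls without WT 3 or KO 3, 3 calls without KO 2, KO 4 or KO 5, and 4 or 5 calls without any of the others. Tars passed in all 10 of these fits (limma, adjusted p 0.000523 to 0.00182). The share of all genes called in each of these fits is not given, so the counts do not show whether other genes lost calls alike. With all 8 groups in 1 fit, which takes the spread of set 3 into account, 0 cytosolic members passed, and Tars had an adjusted p of 0.103.

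**Figure D2:**
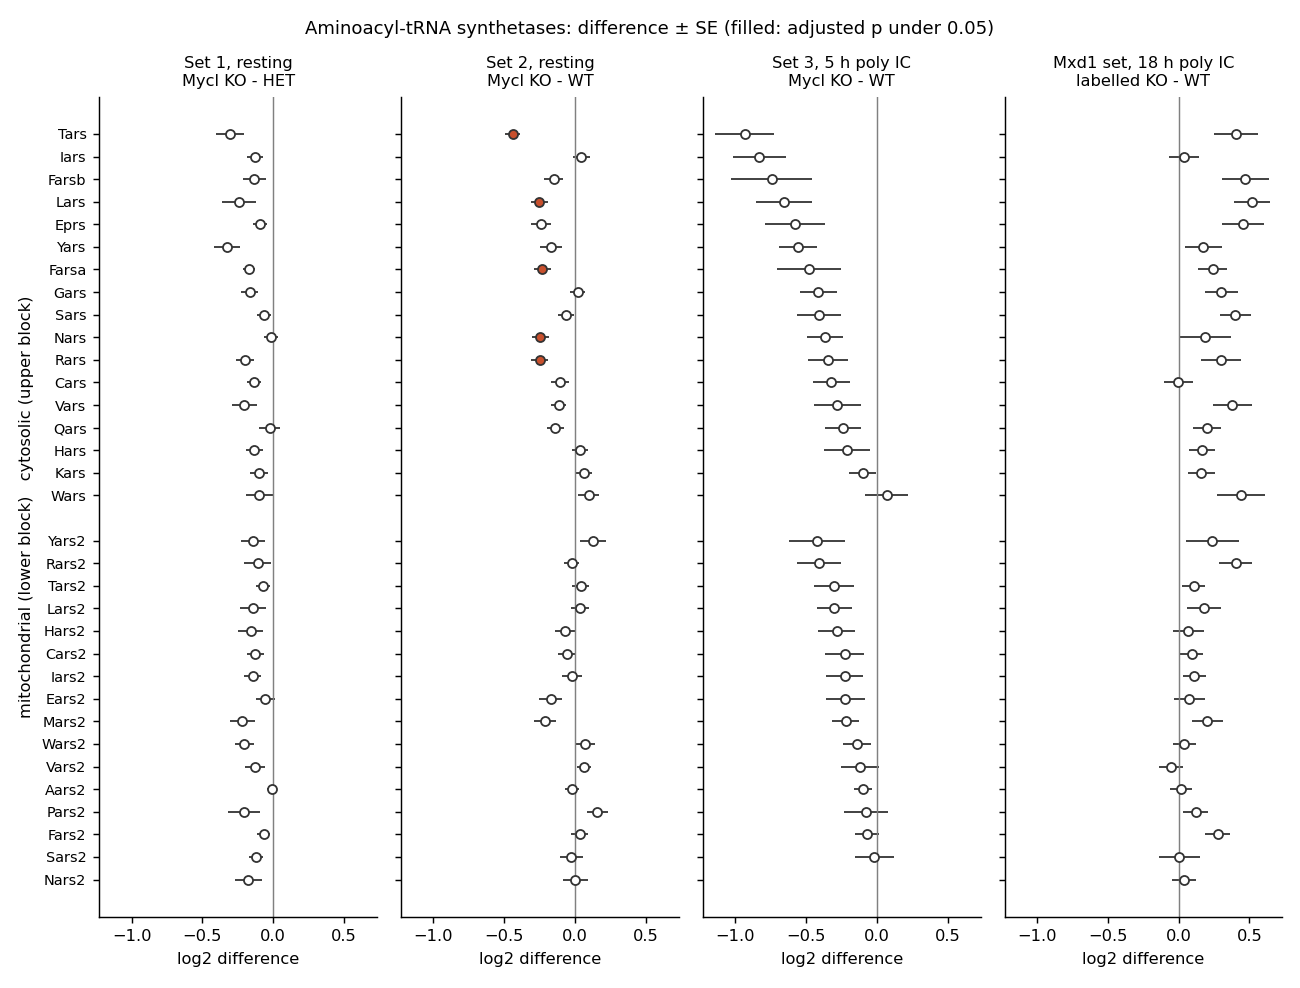
Log2 difference of each measured synthetase in the 4 comparisons (points) with its standard error (bars); cytosolic members stand above mitochondrial ones, ordered by set 3, and filled points passed limma's test at an adjusted p under 0.05. Filled points occur only in set 2, where Tars, Lars, Rars, Nars and Farsa lie left of 0; Nars2 was not tested in set 3.

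In set 1, where resting KO cells were set against HET cells, no synthetase passed the test (0 of 33, against 0.0214% of the 14023 genes tested), but every difference was below 0. This held for 17 of 17 cytosolic and 16 of 16 mitochondrial members, where 48.7% of all genes were below 0. Aars2 read 6.79 on all 4 KO arrays and on HET 1 to HET 4, so its sign rests on HET 5 alone (6.84). The median log2 difference (KO minus HET) was -0.13 over cytosolic members, -0.14 over mitochondrial members and 0.00 over all genes. At an unadjusted p under 0.05 there were 8 cytosolic and 4 mitochondrial members, against 14.2% of all genes. In the same comparison 16 of 16 immediate early genes were above 0 (median 0.21, 10 at an unadjusted p under 0.05), as were 11 of 12 cDC1 markers (median 0.12, 7 at an unadjusted p under 0.05), with 0 called in either list; their part in the synthetase differences was not tested. Members of 1 array share whatever moves that array: HET 5 had the lowest HET value of 11 of the 17 cytosolic members, and KO 4 the highest KO value of 14 of them.

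Yars, the tyrosine enzyme, was at 7.89, 7.93, 7.91, 7.84 and 7.77 in HET and at 7.68, 7.22, 7.53 and 7.73 in KO, all KO arrays being lower (-0.33 ± 0.09, limma, adjusted p = 0.199). Tars was at 8.08, 8.35, 8.37, 8.18 and 7.85 in HET and at 7.86, 7.77, 7.80 and 8.01 in KO (-0.30 ± 0.10, adjusted p = 0.247). Lars was at 8.36, 8.56, 8.48, 8.55 and 8.09 in HET and at 8.30, 7.86, 8.12 and 8.39 in KO (-0.24 ± 0.12, adjusted p = 0.386). The HET 5 array was within the KO range for both Tars and Lars. Yars and Farsa were the cytosolic members whose groups did not overlap, 2 of 17 against 2.72% of all genes lower in KO.

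The largest mitochondrial differences of set 1 were those of Mars2 and Pars2, the methionine and proline enzymes. Mars2 was at 8.17, 8.26, 8.18, 8.23 and 8.07 in HET and at 8.11, 7.94, 7.68 and 8.13 in KO (-0.22 ± 0.09, limma, adjusted p = 0.301). Pars2 was at 6.50, 6.85, 6.64, 6.74 and 7.12 in HET and at 6.61, 6.64, 6.34 and 6.64 in KO (-0.21 ± 0.11, adjusted p = 0.424). Both overlapped between groups. Wars was at 9.31, 9.59, 9.63, 9.46 and 9.11 in HET and at 9.31, 9.25, 9.32 and 9.40 in KO, inside the HET range (-0.10 ± 0.10, adjusted p = 0.633).

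The fit over both steady-state sets uses the same arrays and is no further evidence, but it has more of them. There 6 of 17 cytosolic members fell, against 2.43% of 14639 genes: Tars (-0.38 ± 0.06, limma, adjusted p = 0.000438), Lars (-0.25), Yars (-0.24), Rars (-0.23), Farsa (-0.20) and Eprs (-0.17). Of the mitochondrial members 1 of 16 fell, Mars2 (-0.22 ± 0.06, limma, adjusted p = 0.0370), and its call was lost without any 1 of HET 2, HET 3, HET 4, KO 2 or KO 3 of set 1 or WT 1, WT 3, WT 5, KO 1, KO 2 or KO 3 of set 2 (0 calls each). All 16 mitochondrial differences and 16 of 17 cytosolic ones were below 0, Wars being at 0.00, where 46% of all genes were. Nars, called in set 2, was at -0.01 in set 1 and was not called over both sets (-0.14 ± 0.05, adjusted p = 0.0990). The KO effects of sets 1 and 2 did not differ beyond the test for any synthetase (0 of 33, against 1.01% of genes). The median of the difference, set 1 minus set 2, was -0.11 over mitochondrial and 0.00 over cytosolic members.

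After 5 h of poly IC, in set 3, the differences were larger and so was the spread, and no synthetase passed limma's test with all 10 arrays. The test called 0 of 14033 genes at all (0%), with 1992 genes at an unadjusted p under 0.05. The median log2 difference (KO minus WT) was -0.40 over 17 cytosolic members and -0.22 over the 15 mitochondrial members tested, against 0.00 over all genes. Below 0 were 16 of 17 cytosolic and 15 of 15 mitochondrial members, against 50.3% of genes. The median standard deviation of a cytosolic member was 0.32 among WT arrays of set 3, against 0.08 in those of set 2. Over all genes tested it was 0.16 and 0.10.

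Tars again gave the largest difference. It was at 7.54, 7.43, 7.34, 7.66 and 7.14 in WT and at 6.23, 6.41, 7.31, 6.48 and 6.03 in KO (-0.93 ± 0.21, limma, adjusted p = 0.217). KO 3, the library with Mycl at 8.87, lay within the WT range, and the other 4 KO arrays lay below all WT arrays.

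Iars, the isoleucine enzyme, was at 9.52, 8.71, 8.85, 9.41 and 8.64 in WT and at 8.04, 8.09, 8.65, 8.13 and 8.07 in KO (-0.83 ± 0.19, adjusted p = 0.220). KO 3 was at the level of WT 2 and WT 5, and WT 1 and WT 4 were the highest. The second Iars cluster gave a difference of -0.93, from 7.98 ± 0.32 (SD, n = 5) in WT to 7.05 ± 0.32 in KO. In set 2 the clusters were at 0.04 and 0.05, and in the Mxd1 set they differed, at 0.04 and 0.33.

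Farsb was at 8.38, 7.01, 6.90, 7.98 and 6.83 in WT and at 6.35, 6.69, 6.89, 6.81 and 6.65 in KO (-0.74 ± 0.29, limma, adjusted p = 0.309). Here WT 1 and WT 4 stood more than the other WT arrays above KO. Lars differed by -0.66 ± 0.20 (adjusted p = 0.285), Eprs by -0.58 ± 0.21 (adjusted p = 0.302) and Yars by -0.56 ± 0.13 (adjusted p = 0.229). Eprs was the 1 cytosolic member of 17 whose groups did not overlap, against 1.65% of genes lower in KO.

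Yars2 and Rars2, the tyrosine and arginine enzymes of mitochondria, had the largest mitochondrial differences of set 3. Yars2 was at 6.52, 5.61, 5.59, 6.44 and 5.61 in WT and at 5.5, 5.31, 5.73, 5.57 and 5.54 in KO (-0.42 ± 0.20, limma, adjusted p = 0.361). Rars2 was at 6.91, 6.16, 6.23, 6.66 and 6.10 in WT and at 6.03, 5.86, 6.25, 5.91 and 5.96 in KO (-0.41 ± 0.15, adjusted p = 0.306). In both, WT 1 and WT 4 were the highest arrays and the other WT arrays overlapped KO. Wars had its own pattern, at 8.79, 9.06, 8.96, 8.63 and 9.35 in WT and 9.23, 9.11, 9.19, 9.03 and 8.59 in KO (0.07 ± 0.15, adjusted p = 0.833). WT 1 and WT 4, the arrays with low interferon-stimulated genes, gave its lowest WT values. The sign of the Wars difference turned when they were left out (-0.09).

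**Figure D3:**
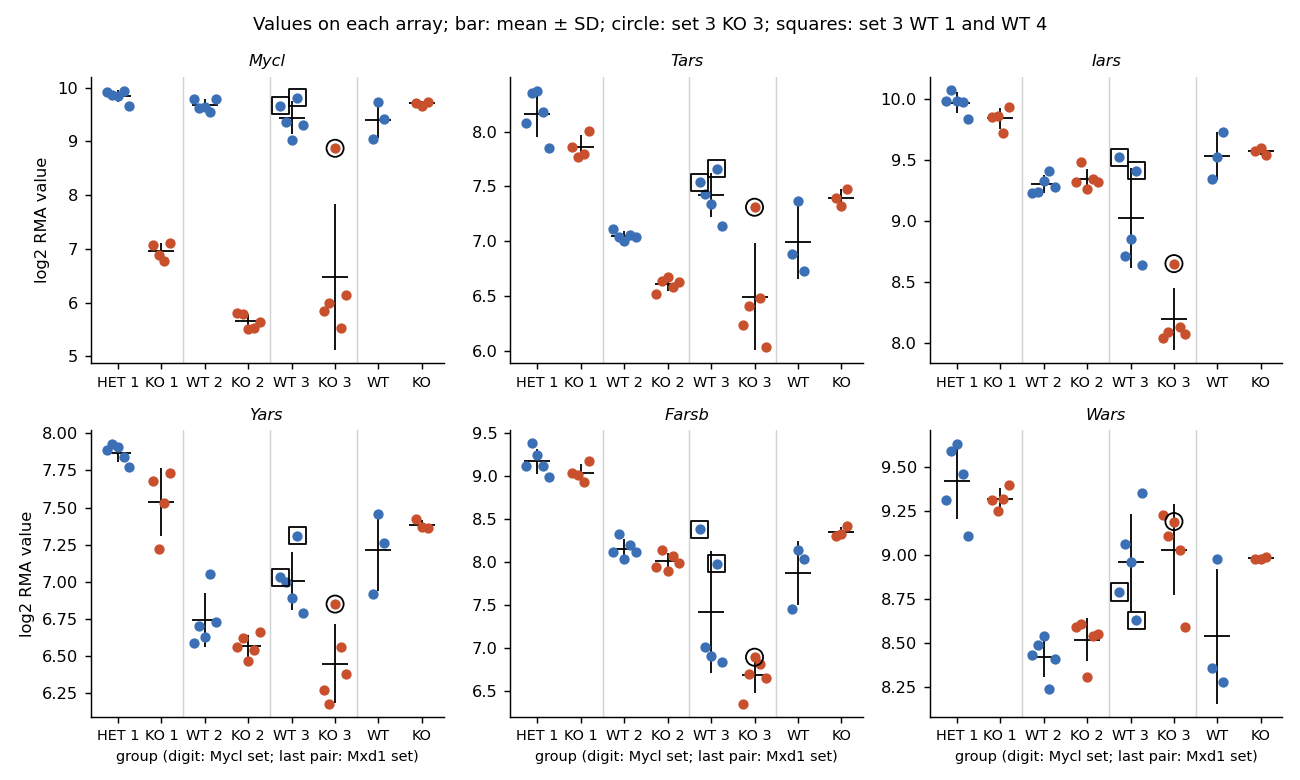
Log2 value on each array (points) of Mycl, Tars, Iars, Yars, Farsb and Wars, with the mean and standard deviation of each group; blue is control and orange KO, grey lines part the 4 sets, and the digit on the axis is the Mycl set. In set 3 the circled array KO 3 is high for Mycl, Tars and Iars among KO arrays, and the squared arrays WT 1 and WT 4 are the highest for Iars and Farsb.

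In set 3 the synthetase levels differed among arrays of 1 genotype. Relative to the WT mean, the median cytosolic synthetase was at 0.33 in WT 1 and 0.31 in WT 4, at -0.19, -0.20 and -0.21 in WT 2, WT 3 and WT 5, at -0.56, -0.49, -0.34 and -0.55 in KO 1, KO 2, KO 4 and KO 5, and at -0.15 in KO 3. The median mitochondrial synthetase was at 0.38 and 0.14 in WT 1 and WT 4 and between -0.24 and -0.11 in the other 8 arrays. Among these it was at -0.15, -0.17 and -0.20 in WT 2, WT 3 and WT 5. It was at -0.24, -0.21 and -0.22 in KO 1, KO 2 and KO 5, and at -0.17 and -0.11 in KO 3 and KO 4. So WT 1 and WT 4 stood above the rest for both kinds of member. For cytosolic members 4 KO arrays also lay below the other 3 WT arrays. For mitochondrial members KO 1, KO 2 and KO 5 did so too, but by smaller margins. KO 3 had the highest KO value of 13 of the 17 cytosolic members.

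**Figure D4:**
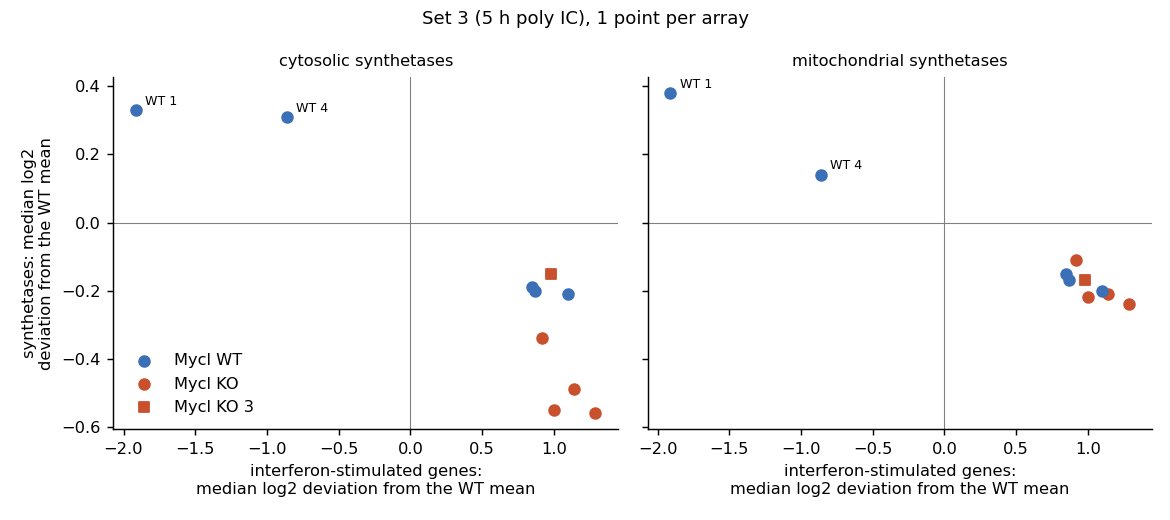
Each point is 1 array of set 3: the x axis is the median log2 deviation of 22 interferon-stimulated genes from the WT mean, the y axis that of the cytosolic (left) or mitochondrial (right) synthetases. WT 1 and WT 4 lie apart at -1.91 and -0.86 on the x axis. Among the other arrays, 4 of the 5 KO arrays lie below the WT arrays for cytosolic members. For mitochondrial members KO 1, KO 2 and KO 5 lie just below them.

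Without WT 1 and WT 4, the cytosolic median was -0.17 and the mitochondrial median -0.04, and 0 synthetases passed (0.0706% of 14174 genes did). Without KO 3 alone, Tars fell by 1.14 ± 0.12 on the log2 scale (limma, adjusted p = 0.0297), 1 of only 2 genes called (0.0142% of 14100). Without WT 1, WT 4 and KO 3, 3 of 17 cytosolic members and 0 of 15 mitochondrial members fell, against 0.17% of 14118 genes. These were Tars (-1.02 ± 0.11, limma, adjusted p = 0.00652), Iars (-0.65 ± 0.08, adjusted p = 0.00789) and Yars (-0.55 ± 0.10, adjusted p = 0.0389). Lars came next (-0.53 ± 0.10, adjusted p = 0.0586). The cytosolic median was then -0.22 and the mitochondrial median -0.04, and groups did not overlap in 10 of 17 cytosolic and 2 of 15 mitochondrial members, lower in KO, against 5.27% of all genes. Over the planned and added alternatives the adjusted p of Tars ran from 0.000184 to 0.452 and that of Iars from 0.000103 to 0.468. KO 3 had the highest KO value of Tars, Iars and Yars, so leaving it out enlarges their falls by construction. The calls made without it are therefore no further evidence of a fall. The part of interferon-stimulated genes and of the Mycl level of KO 3 in these results was not tested.

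Neutrophil markers also varied in set 3. Their mean log2 level (7 measured of 7) ran from 5.52 to 6.80 in WT arrays and from 6.02 to 7.31 in KO arrays, with Ly6g and Csf3r not above the filter level on all arrays; their part in the results was not tested. In set 2 the same markers lay at 4.63 to 4.81 in WT and 4.60 to 4.78 in KO.

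The KO effect after poly IC was set against the resting one as a difference of differences, set 3 minus set 2. With all arrays 0 of 33 synthetases passed, against 0.0205% of 14665 genes. All 17 cytosolic and 15 of 16 mitochondrial differences were below 0, against 52.6% of genes. Iars came nearest (-0.87 ± 0.20, limma, adjusted p = 0.121), and Tars was at -0.49 ± 0.22 (adjusted p = 0.355). Without the 3 arrays that stand apart, Iars (-0.69 ± 0.09, adjusted p = 0.000936) and Tars (-0.58 ± 0.12, adjusted p = 0.0318) passed, 2 of 17 cytosolic members against 0.101% of genes lower, and 0 mitochondrial members did. The median difference was then -0.14 over cytosolic and -0.03 over mitochondrial members. Leaving out KO 3 enlarges the falls of Iars and Tars here as well, so these calls are no further evidence.

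Each cytosolic enzyme can be read against the mitochondrial enzyme for the same amino acid on the same arrays, which gives 14 pairs, Fars2 standing against both Farsa and Farsb. In set 2 the ratio was lower in KO for 11 of 14 pairs, with a median log2 change of -0.18, and in set 3 for 11 of 14 with a median of -0.26. Without WT 1 and WT 4 of set 3 it was lower for 12 of 14 pairs (median -0.21), and without KO 3 as well for 12 of 14 (median -0.26). The pairs were formed without the filter, so those of set 3 include Nars with Nars2. Nars2 did not pass the filter there, at a mean of 4.625 in WT and 4.37 in KO. The ratio of Tars to Tars2 changed by -0.48 ± 0.07 (SE) in set 2 and by -0.63 ± 0.21 in set 3 (-0.91 ± 0.05 without the 3 arrays), and that of Lars to Lars2 by -0.29 ± 0.06 and -0.36 ± 0.14. Iars to Iars2 was at 0.06 ± 0.08 in set 2 and -0.60 ± 0.15 in set 3. In set 1 the ratio was lower for 9 of 14 pairs, with a median of -0.05. No test was made over pairs.

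**Figure D5:**
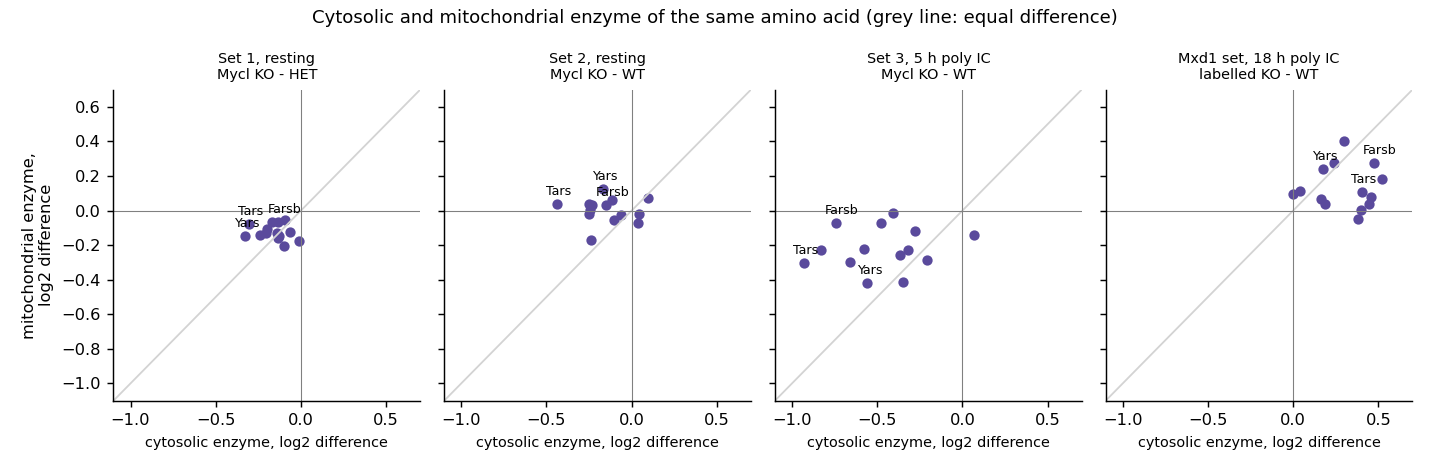
Log2 difference of each cytosolic synthetase (x axis) against the mitochondrial synthetase of the same amino acid (y axis) in the 4 comparisons, 1 point per pair; on the grey line both differ equally. In sets 2 and 3 most points, Tars among them, lie above and left of the line, while in the Mxd1 set 9 of 14 pairs have the larger difference in the cytosolic enzyme.

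The Mxd1 set ran the other way in sign, and no synthetase passed (0 of 33, against 0.071% of 14080 genes). The median log2 difference (labelled KO minus WT) was 0.30 over cytosolic and 0.10 over mitochondrial members, against 0.00 over all genes, and 16 of 17 cytosolic and 15 of 16 mitochondrial members were above 0, where 50.6% of all genes were below. At an unadjusted p under 0.05 there were 9 cytosolic and 2 mitochondrial members, against 15.9% of all genes. Groups did not overlap, with KO higher, in 7 of 17 cytosolic and 3 of 16 mitochondrial members, against 11.8% of all genes. The cDC1 markers (12 measured) lay higher in the labelled KO arrays as well. Relative to the WT mean, their median was -0.24 to 0.10 in WT arrays and 0.19 to 0.22 in KO arrays. Their part in the synthetase differences was not tested.

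Lars was at 7.02, 7.39 and 6.93 in WT and at 7.73, 7.55 and 7.61 in KO, all KO arrays being higher (0.52 ± 0.13, limma, adjusted p = 0.171). Farsb was at 7.45, 8.14 and 8.03 in WT and at 8.30, 8.32 and 8.42 in KO, again all higher (0.47 ± 0.17, adjusted p = 0.248). Eprs was at 7.80, 8.47 and 8.17 in WT and at 8.56, 8.58 and 8.66 in KO, also all higher (0.45 ± 0.15, adjusted p = 0.233). The WT arrays carried the spread, and the KO arrays lay close together. Wars was at 8.36, 8.98 and 8.28 in WT and at 8.98, 8.98 and 8.99 in KO (0.44 ± 0.17, adjusted p = 0.270). WT 2 was at the KO level in Wars.

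Rars2 was at 6.53, 6.90 and 6.87 in WT and 7.29, 7.05 and 7.18 in KO (0.40 ± 0.12, limma, adjusted p = 0.209), and Fars2 at 7.37, 7.58 and 7.51 in WT and 7.76, 7.69 and 7.84 in KO (0.28 ± 0.09, adjusted p = 0.226). In both mitochondrial members all KO arrays were higher. WT 2 had the highest WT value of 15 of the 17 cytosolic members. Without it, 7 of 17 cytosolic and 0 mitochondrial members rose, against 2.98% of 14217 genes. The 7 included Wars (0.67 ± 0.08, limma, adjusted p = 0.0281), Lars (0.66), Eprs (0.62) and Tars (0.59). Leaving out the WT array that is highest for most of these members raises their difference by construction, so these calls are no further evidence of a rise. Without WT 1, 0 members passed (0.0282% of genes did) and the cytosolic median was 0.19. The adjusted p of Wars ran from 0.0281 to 0.627 over its alternatives. Since the Mxd1 level could neither bear out nor refute the labels, these directions are those of the libraries as labelled. Mycl was at 9.05, 9.74 and 9.41 in WT and at 9.72, 9.65 and 9.74 in the labelled KO arrays (0.30 ± 0.155, limma, adjusted p = 0.379). Its lowest value was in WT 1, as was that of the median cytosolic synthetase, and its part in these differences was not tested.

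Of the 3 genes of proteins that hold the synthetase complex together, 2 fell in set 2, where 2.36% of all genes fell. Eef1e1 (-0.41 ± 0.07, limma, adjusted p = 0.00643) and Aimp1 (-0.32 ± 0.06, adjusted p = 0.00967) fell, and Aimp2 was at -0.07 (adjusted p = 0.721). Of 6 measured enzymes of the complex 2 fell, Lars and Rars. In set 3 the scaffold genes were at -0.71 (Eef1e1), -0.56 (Aimp2) and -0.24 (Aimp1), with 0 of 3 called, where 0% of all genes were. Without WT 1 and WT 4 they were at -0.28, -0.09 and -0.12, and without KO 3 as well at -0.39, -0.15 and -0.24, in the same order and with 0 called. Of all genes 0.0706% were called in the first of these fits, and 0.17% fell in the second. In the Mxd1 set the scaffold genes were at 0.37, 0.14 and 0.17, with 0 called, where 0.071% of all genes were.

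Among genes that make and modify tRNA, calls are to be read against the 2.36% of all genes that fell in set 2 and the 3.78% that rose. In set 2, 3 of 20 tested genes of tRNA processing and export fell, Rtcb, the tRNA ligase (-0.39), Trmt10c (-0.35) and Prorp (-0.25), the latter both subunits of mitochondrial RNase P, while Rpp30, a subunit of nuclear RNase P, rose by 0.34. For Rpp30 the KO effects of sets 1 and 2 differed (set 1 minus set 2: -0.50, limma, adjusted p = 0.0224), as they did for 1.01% of all genes. Of 48 genes of tRNA modification 4 fell, Pus3 (-0.39), Thg1l (-0.37), Qtrt1 (-0.35) and Pus1 (-0.31), and 0 rose. Of 22 genes of the RNA polymerase III machinery, which transcribes tRNA genes, 1 fell, Polr1c (-0.50), a subunit shared with RNA polymerase I. Their adjusted p-values lay between 0.000586 and 0.0487 (limma), and the list medians were -0.04, 0.00 and -0.02. With all arrays none of these lists had a called gene in sets 1 and 3, where only 0.0214% and 0% of all genes were called. In set 3 the medians were -0.24 (processing), -0.28 (modification) and -0.08 (polymerase III). Without WT 1 and WT 4 they were -0.08, -0.04 and -0.03. Without KO 3 as well they were -0.11, -0.06 and -0.03, and 1 of 20 processing genes fell, against 0.17% of all genes. It was Rtcb (-0.52 ± 0.09, limma, adjusted p = 0.0343, and 0.243 without WT 1 and WT 4 only). Over both resting sets, where 2.43% of all genes fell, 7 of 49 modification genes fell, among them Qtrt1 (-0.34), Pus3 (-0.33) and Thg1l (-0.33), and Mtfmt, which formylates the initiator methionine of mitochondria, fell by 0.22 (adjusted p = 0.0114), 1 of 4 mitochondrial charging partners.

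The other genes of the ATF4 response had list medians near 0. In set 2, 2 of 16 tested genes fell, against 2.36% of all genes, and the list median was -0.03. These were Slc3a2 (-0.48, limma, adjusted p = 0.0203), a subunit of amino acid transporters, and Chac1 (-0.65, adjusted p = 0.00259), which degrades glutathione. For both, the KO effects of sets 1 and 2 differed, as they did for 1.01% of all genes. Set 1 minus set 2 was 0.63 for Slc3a2 (limma, adjusted p = 0.0385) and 0.69 for Chac1 (adjusted p = 0.022). In set 3 the median was 0.06 over 17 genes, with 0 called (0% of all genes were) and 12 above 0. It was 0.07 without WT 1 and WT 4 and 0.08 without KO 3 as well, with 0 called. Of all genes 0.0706% were called in the first of these fits, and 0.17% fell in the second. In the Mxd1 set Asns, asparagine synthetase, was at 6.20, 6.29 and 6.30 in WT and 8.53, 9.21 and 8.32 in the labelled KO arrays. It rose by 2.42 ± 0.20 (limma, adjusted p = 0.00521), the 1 gene called of 16 in the list, against 0.071% of all genes. The list median was 0.02.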

How the data were processed

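RNA of sorted spleen cDC1 was hybridised to 35 Affymetrix arrays in 8 groups. The deposited values are log2 values for 35556 transcript clusters; they were made in Expression Console by RMA, per the submitters' processing notes, a method that corrects background, equalises arrays and summarises probes. The version of the array annotation and its build were not given in the sources used here. Medians of the arrays lay at 6.50 to 6.57, 5.55 to 5.60, 5.47 to 5.53 and 5.95 to 6.01 in sets 1, 2, 3 and Mxd1, and the sets were treated as normalized apart. Any pair of arrays within set 1 shared on average 1987.08 exactly equal values, against 14.69, 13.62 and 30.8 within sets 2, 3 and Mxd1. The reason is not known. The number of arrays limits the precision, and RMA hides any change in the total RNA of a cell.

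Of the clusters, 21789 had 1 gene symbol; the cluster with the highest mean stood for a gene. Genes at or above the 30th percentile in as many arrays as the smaller group were tested with limma 3.58.1 in R 4.3.3 (lmFit, eBayes, two-sided). P-values were adjusted by Benjamini and Hochberg's method across every gene tested, and 0.05 was the threshold; differences are KO minus control with their standard error. The fits were checked on data simulated with independent normal noise. In the set 2 layout 28.8% of true log2 changes of 0.25 were called, and 90.5% of those of 0.5. For set 3 the shares were 9.09% and 66.7%. A member that did not pass may therefore still have changed by such a size. Array values are given for called members, the 3 cytosolic and 2 mitochondrial members of largest difference in each comparison, and Wars; partner genes are named where called, up to 6 a list. Yars, Lars and Eprs in set 3 and Asns were given beside these. Members and lists were chosen with earlier results of these data known. Same-numbered arrays correlated at -0.4 to 0.17, -0.1 to 0.14, -0.35 to 0.35 and -0.19 to 0.24 in the 4 sets, so the numbers were not taken as pairs. The alternatives were quantile normalization, no filter, a 50th percentile filter, the mean of clusters, array weights, trend and robust fits, a replicate block, 1 fit of all 8 groups and leaving out each array, and, chosen after seeing the data, leaving out WT 1 and WT 4 of set 3, with or without KO 3.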

Additional observations from a re-analysis of the deposited data

Results flagged for a closer look

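In 8 of 102 groups of values 1 array stood apart from the rest, where chance gives about 1 in 20. In set 3, KO 3 was highest for Mycl at 8.87 (other KO arrays 5.52 to 6.14) and for Iars at 8.65 (8.04 to 8.13), KO 1 was lowest for Rars at 8.08 (8.32 to 8.42), and WT 1 was highest for Mars2 at 7.10 (6.68 to 6.73). In set 1, HET 5 was lowest for Mycl at 9.65 (9.85 to 9.93), KO 4 lowest for Eprs at 9.82 (9.95 to 9.97) and KO 3 lowest for Pars2 at 6.34 (6.61 to 6.64). In set 2, KO 3 was lowest for Wars at 8.31 (8.54 to 8.61).

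The effect of Mycl loss in set 2 was set against those of sets 1 and 3 for the members whose array values are given. In 2 of them every KO array lay on one side of its control mean in one set and on the other side in set 2. Pars2 was lower in KO in set 1 and higher in set 2, a difference of -0.37 on the log2 scale, and Yars2 was lower in KO in set 3 and higher in set 2, a difference of -0.55. Neither difference of differences passed in limma (adjusted p = 0.177 and 0.332).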

How the results depend on the processing

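The call of Tars in set 2 held in every fit but 1, that of all 8 groups. With all 8 groups in 1 fit, 0 cytosolic members were called in set 2 (2.55% of all genes were), and 12 cytosolic and 3 mitochondrial members in set 3 (13.6% of all genes were); this fit pools the spread of sets that differ in it. With array weights there was 1 cytosolic call in set 1 (1.01% of all genes), 2 in set 3 (0.513%), 1 in set 1 minus set 2 (3.99%) and 1 in set 3 minus set 2 (0.505%), where the mitochondrial median was -0.0761. Without WT 1 and WT 4 of set 3, chosen after seeing the data, the mitochondrial median was -0.0367 in set 3, and in set 3 minus set 2 the medians were -0.0874 (cytosolic) and -0.0261 (mitochondrial). Without KO 3 as well, cytosolic calls were 3 in set 3 and 2 in set 3 minus set 2, where the mitochondrial median was -0.0309. Quantile normalization of all arrays put the mitochondrial median of set 1 minus set 2 at -0.058. The Wars difference of set 3 turned sign with array weights (-0.0042), without WT 1 and WT 4 (-0.0942), without KO 3 as well (-0.1356) and without WT 4 alone (-0.0119), in a range of -0.0119 to 0.1817 over single arrays left out. Leaving out 1 array at a time gave 1 to 5 cytosolic calls in set 2, 0 to 1 in set 3 (1 without KO 3), 0 to 7 in the Mxd1 set (7 without WT 2) and 0 to 1 in set 3 minus set 2 (1 without WT 5 of set 3). It gave 0 to 1 mitochondrial calls over both steady-state sets, and a mitochondrial median of -0.26 to -0.10 in set 3 minus set 2. With the replicate block, 4 cytosolic members were called in set 2 (Farsa had an adjusted p of 0.0584) and 4 over both steady-state sets, and same-numbered arrays showed no pairing: 1 control array a set correlated best with its own number. Shares of all genes are not given for the block or for most fits without 1 array. Those counts therefore do not show whether synthetases differed from other genes. The causes of these shifts were not tested. Arrays give no read depth; calls in the Mxd1 set rest on 3 arrays a group.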
